A study of Mus musculus with 46 samples.

Results

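Hsd11b2, Corin and Gm8773 are 3 of the 31854 genes in the count table of an experiment on hunger neurons of the mouse arcuate nucleus. They were chosen by the fitted difference in RNA between AgRP and POMC neurons of fed mice, in which they ranked 1st, 4th and 5th, with Agrp and Npy in the 2 places between, so that difference is given below only as a description. The members of the set are the rows of these genes in all RNA libraries of AgRP and POMC neurons, and the ATAC-seq peaks whose nearest edge lay within 50 kb of their start sites. The RNA and ATAC-seq samples came from male C57BL/6J mice of 6 to 11 weeks that carried the NuTRAP allele, in which Cre switches on a GFP-tagged ribosomal subunit and an mCherry-tagged nuclear membrane protein. AgRP-IRES-Cre directed the tags to AgRP neurons and POMC-IRES-Cre to POMC neurons. Tagged ribosomes gave RNA by affinity purification (TRAP). Fed mice ate freely and received vehicle, fasted mice went 18 to 20 h without food and received vehicle, and leptin mice were fasted alike and received leptin at 5 mg/kg by intraperitoneal injection, with tissue taken 3 h after injection in every group. The RNA libraries numbered 3 fed, 4 fasted and 4 leptin for AgRP neurons, each from 4 pooled arcuate nuclei, and 2 per state for POMC neurons. ATAC-seq, which reads open chromatin by transposase insertion, was run on nuclei sorted by GFP. There were 2 libraries of AgRP-positive and 2 of AgRP-negative nuclei from untreated fed mice, and 2 of AgRP-positive nuclei in each of the 3 states. A CUT&RUN sample of IRF3 came from AgRP neurons of untreated fed male mice of the IRF3-2D model, aged 6 to 11 weeks. These mice carry a Cre-dependent, constitutively active IRF3, and no label gives the sample the NuTRAP allele. CUT&RUN of CTCF used AgRP nuclei and 4 samples of cerebellum, also from mice of 6 to 11 weeks. The genotype and feeding state of those mice are not given here. The labelled inputs were 3K nuclei for AgRP and 1K, 10K, 50K and 100K nuclei for cerebellum.

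AgRP neurons drive feeding through agouti-related protein, neuropeptide Y and GABA, and neighbouring POMC neurons oppose them through melanocortin peptides. Hsd11b2 encodes 11β-hydroxysteroid dehydrogenase type 2, which inactivates corticosterone and so lets aldosterone reach the mineralocorticoid receptor. Its partner Hsd11b1, fed with cofactor by H6pd, runs the reaction the other way. Corin encodes a type II transmembrane serine protease that converts pro-atrial natriuretic peptide to its active form and that also acts on the agouti pathway in hair follicles. Gm8773 is a predicted gene for which no role is given here.

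On the RefSeq annotation of GRCm38 (mm10), Hsd11b2 lay on the plus strand at chr8:105518746-105523988 and spanned 5243 bases. Corin lay on the minus strand at chr5:72299948-72504540 and spanned 204593 bases. Gm8773 lay on the plus strand at chr5:5574004-5576205 and spanned 2202 bases. Other genes with a start site within 50 kb were Tppp3, Zdhhc1, Atp6v0d1, Gm38250 and Agrp for Hsd11b2, and Gtpbp10 for Gm8773. Corin had none. The start site of Agrp stood 49.6 kb downstream of that of Hsd11b2, on the opposite strand. The AgRP-IRES-Cre allele is an insertion at Agrp that the POMC line lacks, so for the RNA of Hsd11b2 the cell type and the modified neighbour cannot be told apart.

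The results turned on 2 promoters and on 1 distal peak each for Corin and Gm8773, shown here so that their letters can be read beside the accessibility values. The promoters are RefSeq sequences of 250 bases before to 50 after the start on GRCm38.p6, on the gene's own strand. The peaks are the central 300 bases on the plus strand of the same build. Promoter sequences were at hand for Corin and Gm8773 but not for Hsd11b2, whose promoter was not searched for motifs. Capitals mark every match, on either strand, to 8 motifs, which were a homeobox TAATTA, an E-box CANNTG, an AP-1 site TGANTCA, a cyclic AMP response core TGACG, a STAT site TTCNNNGAA, an interferon regulatory factor site, a forkhead site TGTTTAC and a steroid receptor element.
Gm8773 promoter, chr5:5573754-5574053, plus strand: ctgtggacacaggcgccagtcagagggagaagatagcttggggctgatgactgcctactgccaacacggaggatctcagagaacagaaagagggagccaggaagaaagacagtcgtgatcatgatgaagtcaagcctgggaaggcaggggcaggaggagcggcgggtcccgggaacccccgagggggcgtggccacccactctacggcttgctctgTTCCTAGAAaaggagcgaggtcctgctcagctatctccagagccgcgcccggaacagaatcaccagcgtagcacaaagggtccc
Corin promoter, chr5:72504491-72504790, minus strand: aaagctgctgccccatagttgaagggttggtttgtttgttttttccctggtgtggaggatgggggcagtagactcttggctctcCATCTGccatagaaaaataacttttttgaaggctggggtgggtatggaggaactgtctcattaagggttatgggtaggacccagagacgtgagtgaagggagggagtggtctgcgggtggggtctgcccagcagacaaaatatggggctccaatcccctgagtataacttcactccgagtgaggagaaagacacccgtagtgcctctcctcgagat
Gm8773 distal peak, chr5:5540868-5541167, plus strand: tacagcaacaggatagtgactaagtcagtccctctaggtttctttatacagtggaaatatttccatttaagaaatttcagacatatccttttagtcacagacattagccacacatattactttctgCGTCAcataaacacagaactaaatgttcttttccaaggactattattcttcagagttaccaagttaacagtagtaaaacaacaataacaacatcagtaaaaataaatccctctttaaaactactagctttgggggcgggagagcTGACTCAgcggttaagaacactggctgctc
Corin distal peak, chr5:72541902-72542201, plus strand: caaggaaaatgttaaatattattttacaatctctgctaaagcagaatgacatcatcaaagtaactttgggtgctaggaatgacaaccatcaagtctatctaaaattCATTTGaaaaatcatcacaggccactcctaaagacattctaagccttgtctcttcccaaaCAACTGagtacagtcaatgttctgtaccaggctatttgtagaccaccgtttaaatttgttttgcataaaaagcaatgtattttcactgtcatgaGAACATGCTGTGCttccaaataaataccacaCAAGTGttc
The Gm8773 promoter held 1 STAT match, as did 8.29% of 32817 RefSeq promoters of this length. The Corin promoter held 1 E-box match, found in 72.3% of promoters. The Gm8773 distal peak held 1 AP-1 match and 1 cyclic AMP response core, letters found in 17.8% and 16.8% of the central 300 bases of 67389 peaks. The Corin distal peak held 3 E-box matches, found in 75.5% of peaks, and 1 match to the steroid receptor element, found in 1.72% of peaks and 0.475% of promoters. None of the other motifs matched in the 4 windows. A match describes the letters and does not show that a factor was bound.

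Sequencing gave 25581041 to 54511107 gene counts per RNA library and 8263234 to 17190963 peak counts per ATAC-seq library. Levels are CPM, counts scaled to a common library total, after TMM scaling, and levels of different genes are compared only per kb of gene length. Agrp, Npy and Pomc followed the labels in all 17 RNA libraries, since the lowest AgRP library exceeded the highest POMC library for Agrp and Npy and the reverse held for Pomc. The AgRP libraries of replicate 4 and the POMC libraries of replicate 2 stood apart. The summed level of 7 astrocyte markers was 21077 to 28079 CPM in those 6 libraries and 2857 to 6885 CPM in the other 11. In bulk RNA of this kind, fewer cells of a type and less RNA per cell cannot be told apart.

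Hsd11b2 RNA was plentiful in AgRP neurons and near the limit of counting in POMC neurons. Its level was 66.7, 81.0 and 66.8 CPM in the fed AgRP libraries, 74.0, 71.8, 78.4 and 64.4 CPM in the fasted ones and 60.8, 67.8, 83.9 and 59.6 CPM after leptin. The POMC libraries gave 0.174 and 0.307 CPM when fed, 0.0579 and 0.218 CPM when fasted and 0.436 and 0.277 CPM after leptin. Those POMC values rest on 2 to 15 reads each, and the 95% Poisson intervals reached from 0.00701 CPM in the lowest library to 0.719 CPM in the highest, covering counting error only. No POMC library approached an AgRP library in any state.

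Corin, the natriuretic peptide convertase, was also high in every AgRP library. Its level was 80.6, 83.0 and 59.8 CPM when fed, 89.1, 95.4, 122.8 and 95.7 CPM when fasted and 84.3, 97.3, 104.1 and 67.6 CPM after leptin. The POMC libraries gave 2.28 and 3.43 CPM when fed, 4.60 and 3.67 CPM when fasted and 3.31 and 3.65 CPM after leptin. The AgRP and POMC libraries did not overlap.

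In AgRP libraries Gm8773 was the most variable of the 3 relative to its mean. Its level was 23.9, 23.4 and 10.8 CPM in the fed AgRP libraries, 40.7, 21.9, 25.9 and 18.3 CPM in the fasted ones and 26.4, 16.8, 27.4 and 10.1 CPM after leptin. The POMC libraries gave 0.629 and 0.920 CPM when fed, 2.46 and 1.52 CPM when fasted and 3.17 and 1.81 CPM after leptin. The lowest AgRP library of each state was the replicate 4 library, one of those high in astrocyte RNA.

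**Figure D1:**
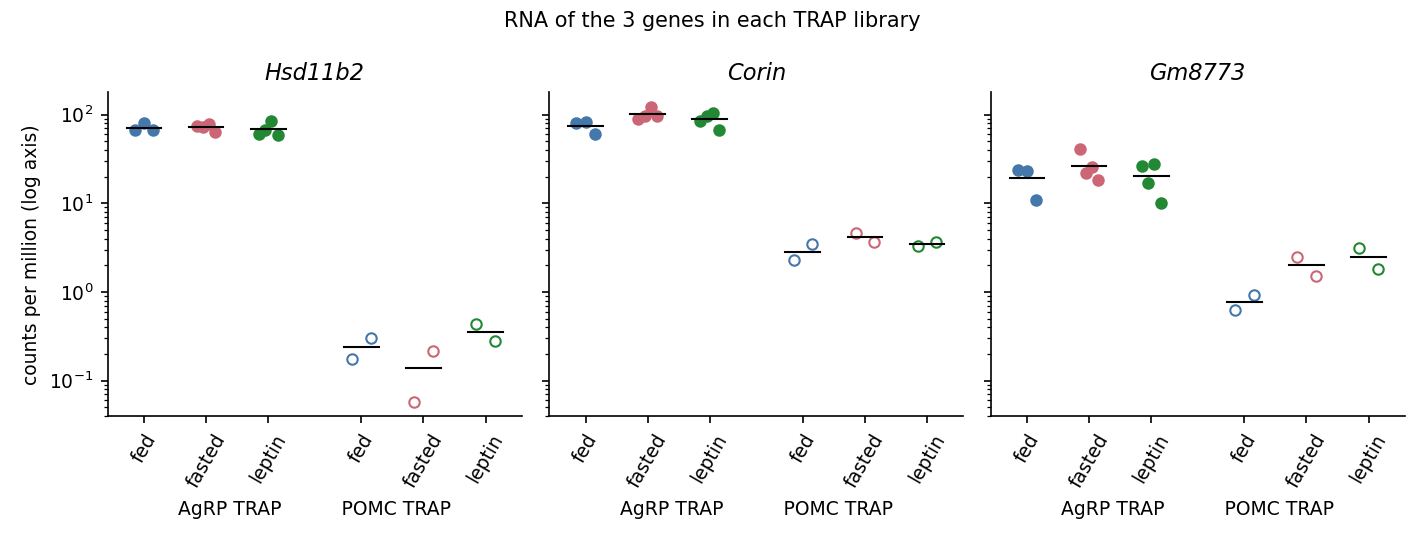
CPM on a log axis for Hsd11b2, Corin and Gm8773 in each of the 11 AgRP libraries (filled circles) and 6 POMC libraries (open circles), by state, with the mean as a line. AgRP libraries lay above POMC libraries for all 3 genes, and Hsd11b2 in POMC libraries stayed at or below 0.436 CPM.

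Per kb of gene length, Hsd11b2 stood highest of the 3 in fed AgRP neurons at 38.7 ± 4.47 CPM per kb (SD, n = 3). Gm8773 had 15.3 ± 5.84 and Corin 14.8 ± 2.54 CPM per kb, and these neighbours in the order overlapped. In fed AgRP neurons Hsd11b2 exceeded 89.3% of the 13435 genes ranked, Gm8773 69.7% and Corin 68.9%. In fed POMC neurons the same shares were 0.246% for Hsd11b2, 6.17% for Gm8773 and 5.58% for Corin.

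In fed mice, the contrast that chose the genes, the fitted log2 difference between AgRP and POMC neurons was 8.19 for Hsd11b2, 4.70 for Corin and 4.64 for Gm8773. Agrp stood at 5.62 and Npy at 5.36 in the same fit, and the gene after Gm8773 was Serpina3c at 4.52. A feature counted as called when its p in the quasi-likelihood test of edgeR, adjusted over all features tested by the method of Benjamini and Hochberg (FDR), was under 0.05 and its log2 change exceeded 0.5 in either direction. By that rule 2.17% of 13453 genes were called in fed mice, and nothing is read from the place of the 3 genes among them.

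The fasted and leptin libraries took no part in the choice. In fasted mice all 3 genes were called, against 7.46% of the 13412 genes tested. Hsd11b2 was higher in AgRP than POMC neurons by 9.06 ± 0.38 on the log2 scale (SE), with an edgeR FDR of 0.000197. That value rests on 2 and 6 POMC reads, and was 8.38 without fasted POMC replicate 1 and 10.20 without fasted POMC replicate 2, each with 1 POMC library assumed to vary like the others. Corin was higher by 4.59 ± 0.22 (edgeR FDR 0.000197) and Gm8773 by 3.72 ± 0.42 (edgeR FDR 0.00358). After leptin all 3 were called again, against 4.75% of 13419 genes. The log2 differences were 7.58 ± 0.30 for Hsd11b2 (edgeR FDR 9.67e-05), 4.66 ± 0.24 for Corin (edgeR FDR 0.000416) and 3.02 ± 0.49 for Gm8773 (edgeR FDR 0.0174). Hsd11b2 passed the filter on low counts only through the AgRP libraries, so a difference was built into its place among the genes tested. For Gm8773 after leptin the call was lost without leptin AgRP replicate 1 (FDR 0.0605), without leptin POMC replicate 1 (FDR 0.0819) or without leptin POMC replicate 2 (FDR 0.104). No other call of the 3 genes in these 2 states was lost when 1 library was left out. Without the libraries high in astrocyte RNA all 3 genes were called in both states, but this left 1 POMC library per state, assumed to vary like the AgRP libraries.

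The POMC level as a share of the AgRP level differed among the 3 genes. For Hsd11b2 it was 0.336% in fed, 0.191% in fasted and 0.524% in leptin mice. For Agrp, the defining gene of AgRP neurons, it was 2.03%, 1.43% and 1.58%. Corin stood at 3.84%, 4.10% and 3.94%. Gm8773 stood at 4.00%, 7.47% and 12.3%. These shares were not tested against each other.

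Among the 3 hunger states of AgRP neurons, none of the 3 genes was called. Fasting called 3.89% of 13401 genes. Hsd11b2 differed between fasted and fed mice by 0.02 ± 0.12 on the log2 scale (edgeR FDR 0.961), with a 95% interval of -0.22 to 0.26, and the libraries overlapped. Corin differed by 0.45 ± 0.16 (edgeR FDR 0.154), and here every fasted library exceeded every fed one, the closest being 89.1 against 83.0 CPM. Gm8773 differed by 0.46 ± 0.38 (edgeR FDR 0.571), and its libraries overlapped. At an unadjusted p under 0.05 there was 1 of the 3, Corin, and DESeq2 called 0.

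Libraries with the same replicate number deviated together in the AgRP samples, so the replicate number was also fitted as a block. Gm8773 was then higher in fasted mice by 0.55 on the log2 scale and was called (edgeR FDR 0.0135). Corin was higher by 0.43 with an edgeR FDR of 0.00737, short of the fold required. Hsd11b2 stayed at 0.03 (edgeR FDR 0.816). Agrp itself, the hunger peptide encoded beside Hsd11b2, differed by 1.81 ± 0.47 without the block (edgeR FDR 0.0524) and by 1.64 with it (edgeR FDR 8.74e-05).

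Leptin against fasted called 1.83% of 13401 genes and 0 of the 3, with 0 at an unadjusted p under 0.05 in edgeR and 0 by DESeq2. The log2 differences were -0.08 ± 0.11 for Hsd11b2, -0.19 ± 0.15 for Corin and -0.40 ± 0.35 for Gm8773. Leptin against fed called 5.48% of genes and 0 of the 3, again with 0 at an unadjusted p under 0.05 in edgeR and 0 by DESeq2. There the differences were -0.06 ± 0.12, 0.25 ± 0.16 and 0.06 ± 0.38 in the same order. The intervals for Hsd11b2 were narrow, -0.31 to 0.14 for leptin against fasted, whereas that of Gm8773 ran from -1.08 to 0.28.

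In POMC neurons Hsd11b2 was too low to be tested across states. Neither Corin nor Gm8773 was called, where edgeR called 0% of 13412 genes in either contrast. There were 282 genes at an unadjusted p under 0.05 for fasted against fed and 151 for leptin against fasted, and DESeq2 called 3 and 10. Fasted against fed gave 0.54 ± 0.27 for Corin and 1.37 ± 0.43 for Gm8773 (unadjusted edgeR p of 0.0971 and 0.0218, FDR 1 for both). All 4 fasted and leptin POMC libraries lay above both fed ones for Gm8773, between 1.52 and 3.17 CPM against at most 0.920 CPM. The AgRP neuron genes Agrp (10.9 to 27.4 against at most 9.71 CPM) and Npy (19.9 to 51.9 against at most 18.8 CPM) were separated alike in these libraries. Their fasted against fed differences were 1.31 ± 0.54 and 1.30 ± 0.54, and neither was called. Whether the Gm8773 RNA in POMC libraries came from AgRP neurons was not tested.

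Whether a state acted differently in the AgRP and POMC neurons was tested as an interaction over all 17 libraries. For the fasting effect 0.164% of 13435 genes were called, and 0 of the 3 in edgeR and in DESeq2, with 0 at an unadjusted p under 0.05. The differences were 0.88 ± 0.49 for Hsd11b2, -0.10 ± 0.30 for Corin and -0.91 ± 0.68 for Gm8773. For the leptin effect 0.0819% of genes were called and again 0 of the 3 by either tool, with 1 at an unadjusted p under 0.05. That 1 was Hsd11b2, at -1.50 ± 0.47 (edgeR FDR 0.895), a value that rests on the 8 fasted and 26 leptin reads of the POMC libraries.

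Genes around Hsd11b2 in the corticosteroid pathway were measured in the same libraries. Of a list of 16 genes of corticosteroid metabolism and receptors, without Hsd11b2, 13 were tested. In fasted against fed AgRP neurons 1 was called higher and 0 lower, where 3.89% of all genes were called, and the median log2 difference was -0.04 beside 0.02 for all genes. The gene called was Fkbp5, a chaperone of the glucocorticoid receptor and one of its targets, at 0.84 ± 0.20 (edgeR FDR 0.0324). Leaving out 1 library ended that call in 6 of 11 fits, with FDRs up to 0.128, as did library size scaling (FDR 0.117).

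Leptin against fasted called 1 of the 13 higher and 0 lower, where 1.83% of all genes were called, with a median of -0.05 beside -0.01 for all genes. It was Nr3c2, the mineralocorticoid receptor that Hsd11b2 shields from corticosterone. Nr3c2 stood at 29.4, 29.1 and 30.5 CPM in fed AgRP libraries and at 23.9, 23.1, 24.9 and 28.7 CPM in fasted ones. After leptin it stood at 64.0, 49.9, 49.2 and 48.8 CPM, above every library of the other 2 states. The rise over fasted was 1.07 ± 0.11 on the log2 scale (edgeR FDR 0.000411) and over fed 0.84 ± 0.11 (edgeR FDR 0.00186). Both calls held when any 1 library was left out. Nr3c1, the glucocorticoid receptor, stood at 379 ± 48.6 CPM (SD, n = 3) fed, 366 ± 24.9 (n = 4) fasted and 287 ± 26.0 (n = 4) after leptin. It was not called in any of the 3 contrasts, and for leptin against fed its -0.39 ± 0.11 fell short of the fold required (edgeR FDR 0.0436). Hsd11b1 was at 2.40 ± 0.17 CPM (SD, n = 3) and H6pd at 10.8 ± 0.58 CPM (n = 3) in fed AgRP neurons, and neither was called. Per kb, Hsd11b1 had 1.52 ± 0.11 CPM per kb in fed AgRP neurons, beside the 38.7 CPM per kb of Hsd11b2.

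Of 18 listed target genes of the 2 corticosteroid receptors, 14 were tested. Fasting called 4 higher and 0 lower, where 3.89% of all genes were called, with a median of 0.45 beside 0.02 for all genes. They were the kinase gene Sgk1 at 0.93 ± 0.13, the stress gene Ddit4 at 0.88 ± 0.13, the EGF receptor inhibitor Errfi1 at 0.99 ± 0.11 and the metallothionein Mt2 at 1.26 ± 0.30, with edgeR FDRs of 0.00244, 0.00301, 0.00107 and 0.0375. The Mt2 call was lost without the replicate 4 libraries (FDR 0.0933), with library size scaling (FDR 0.0586) and in 7 of 11 fits with 1 library removed. Leptin against fasted called 0 higher and 1 lower, Errfi1 at -0.56 ± 0.10 (edgeR FDR 0.0114), where 1.83% of all genes were called. That call was lost with library size scaling (FDR 0.163) and fell short of the fold required without leptin replicate 4 (-0.48) or all replicate 4 libraries (-0.497). Leptin against fed called 3 higher and 0 lower, where 5.48% of all genes were called, with a median of 0.15 beside 0.01 for all genes. They were Sgk1 at 0.83 ± 0.13, Mt1 at 1.85 ± 0.32 and Mt2 at 2.23 ± 0.32 (edgeR FDR 0.00342, 0.00666 and 0.00231). Other signals also reach these target genes, and the lists were drawn up with results of these libraries known.

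**Figure D2:**
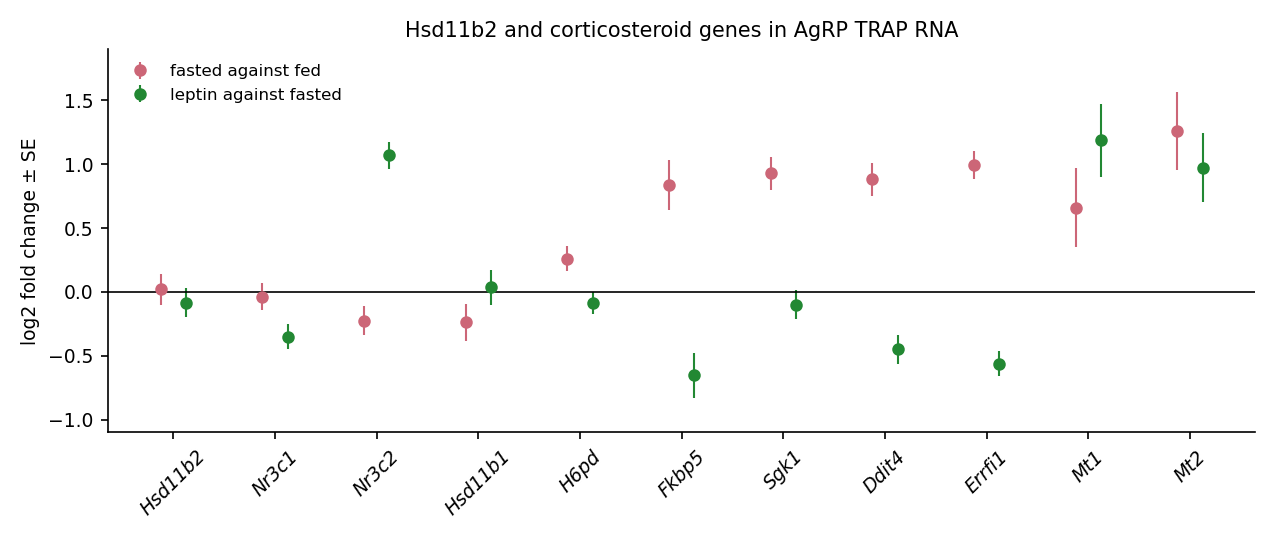
Fitted log2 fold changes with SE in AgRP TRAP RNA for Hsd11b2 and 10 corticosteroid genes, for fasted against fed and leptin against fasted. Hsd11b2 lay within 0.09 of 0 in both, Nr3c2 stood at 1.07 after leptin, and Sgk1, Ddit4 and Errfi1 rose with fasting.

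The receptor genes were also compared between AgRP and POMC neurons. Nr3c1 was higher in AgRP neurons by 0.98 ± 0.15 in fed mice (edgeR FDR 0.0291) and by 0.87 ± 0.13 in fasted mice (edgeR FDR 0.00986). Nr3c2 was higher by 1.12 ± 0.20 in leptin mice (edgeR FDR 0.0233). Those were the only calls of the corticosteroid list, 1 of 13 in each state, where 2.17%, 7.46% and 4.75% of all genes were called in fed, fasted and leptin mice. Of the target list, Errfi1 was called higher in all 3 states, Sgk1 in fasted and leptin mice and Mt2 in fasted mice.

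Around Corin, 15 genes of the natriuretic peptide system were listed. Of 13 tested across states in AgRP neurons, 0 were called by fasting (median 0.03) and 0 by leptin against fasted (median -0.02), beside 0.02 and -0.01 for all genes. Leptin against fed called 1 lower, the clearance receptor Npr3 at -0.65 ± 0.16 (edgeR FDR 0.0293), a call that 5 of 11 fits with 1 library removed and library size scaling (FDR 0.0646) did not keep. Nppa, which encodes the precursor that Corin cuts, was at 1.21 ± 0.40 CPM (SD, n = 3) in fed AgRP neurons and at 0.532 ± 0.231 CPM (n = 2) in fed POMC neurons. It was too low to be tested between the neuron types in fed mice, differed by 1.33 ± 0.40 in fasted mice without being called (edgeR FDR 0.0862) and was called higher in AgRP neurons of leptin mice, by 1.58 ± 0.27 (edgeR FDR 0.0202). Like Hsd11b2, it passed the filter there only through the AgRP libraries, so a difference was built into its being tested. Nppc, which encodes C-type natriuretic peptide, was lower in AgRP than POMC neurons in all 3 states, by -2.33, -2.81 and -2.66 for fed, fasted and leptin. The other calls of the list between the neuron types were Prkg1, lower in fasted and leptin mice, and Npr3, lower in leptin mice. In all, 0 were called higher and 1 lower of 12 in fed, 0 and 2 of 13 in fasted and 1 and 3 of 13 in leptin mice. Of all genes, 2.17%, 7.46% and 4.75% were called in those states. The receptor gene Npr2 stood at 68.6 ± 7.55 CPM (SD, n = 3) and Npr1 at 3.34 ± 0.72 CPM in fed AgRP neurons. The proteases Furin and Pcsk6, which can mature such precursors or their convertases, stood at 23.4 ± 0.43 and 19.8 ± 2.53 CPM.

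Of 14 other type II transmembrane serine proteases listed, the family of Corin, 1 passed the filter on low counts and it was not called in any contrast. Of 15 genes of agouti and melanocortin signalling, 13 were tested. Fasting called 1 higher and 1 lower, where 3.89% of all genes were called. The median was -0.06 beside 0.02 for all genes. Pcsk1, a prohormone convertase, was higher by 0.74 ± 0.12 and Mrap2, a melanocortin receptor accessory protein, lower by -0.62 ± 0.09 (edgeR FDR 0.00512 and 0.00259). The Pcsk1 call was lost with library size scaling (FDR 0.0731). Mrap2 was also called lower in the interaction for the fasting effect, where 0.164% of all genes were called. Leptin against fasted called 1 higher and 0 lower, where 1.83% of all genes were called. The median was 0.01 beside -0.01 for all genes. The gene called was the melanocortin receptor Mc3r, at 0.76 ± 0.15 (edgeR FDR 0.0206). It was lost in 5 of 11 fits with 1 library removed and with library size scaling (FDR 0.0874). Leptin against fed called Agrp higher and Mrap2 lower, beside 5.48% of all genes. The Agrp call was lost in 9 of 11 fits with 1 library removed. Against POMC neurons, Agrp was called higher and Pomc and Atrnl1 lower in all 3 states. Mrap2 was called lower in fasted and leptin mice.

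The genes next to Hsd11b2 differed between AgRP and POMC neurons in either direction or were not called. In fasted mice Tppp3, a tubulin-binding protein, was lower in AgRP than POMC neurons by -1.37 ± 0.18 (edgeR FDR 0.00667) and Atp6v0d1, a subunit of the vacuolar proton pump, was higher by 0.99 ± 0.21 (edgeR FDR 0.0368), as it was in leptin mice by 0.97 ± 0.20 (edgeR FDR 0.0405). Zdhhc1, a palmitoyltransferase, differed by 0.04 ± 0.11 (edgeR FDR 0.821). Tppp3 stood at 81.2, 108.5 and 91.7 CPM in fed AgRP libraries and at 48.4 to 65.8 CPM in the 4 fasted ones, a fall of 0.68 ± 0.13 on the log2 scale (edgeR FDR 0.0149). That call was lost without fasted replicate 1 (FDR 0.0502) or fed replicate 3 (FDR 0.066). Gtpbp10, next to Gm8773, differed between AgRP and POMC neurons of fasted mice by 0.20 ± 0.18 (edgeR FDR 0.51).

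The genes most like each member were found by Pearson's r of log2 CPM, as a description. Over the 17 libraries, which share the split between the 2 lines, Corin stood first for Hsd11b2 (r = 0.985), followed by Rai2 (0.984) and Tgfbi (0.984). Acvr1c stood first for Corin (r = 0.989), followed by Hsd11b2 (0.985) and Ghsr (0.985). Ptprk stood first for Gm8773 (r = 0.983), followed by Gimap6 (0.98). Over the 11 AgRP libraries alone, which share differences in astrocyte RNA, none of the 3 genes was among the 5 nearest of another. Etfb was nearest to Hsd11b2 (r = 0.963), Fkbp2 to Corin (r = 0.948) and Pramef8 to Gm8773 (r = 0.958).

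The ATAC-seq of sorted nuclei compared nuclei from the same pooled mice and so did not involve the POMC line. The negative gate took nuclei without GFP, which the labels call non-AgRP neurons. Of 66560 peaks tested, 39.6% were called. Within 50 kb of the 3 start sites 16 peaks were tested, 6 called more open in AgRP-positive nuclei and 2 less open, beside 23.9% and 15.6% of all peaks in those directions.

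Of the tested peaks, 3 of 4 at Corin and 2 of 3 at Gm8773 were called more open in AgRP-positive nuclei. The Corin promoter peak, 0.5 kb inside the gene, had 12.6 and 13.3 ATAC-seq CPM in AgRP-positive nuclei and 4.19 and 2.01 in negative ones. It was more open by 2.07 ± 0.31 on the log2 scale (edgeR FDR 5.92e-10). The peak 11.0 kb upstream, in an intron of Nfxl1, had 225 and 267 counts against 94 and 39 counts, a difference after scaling of 1.39 ± 0.22 (edgeR FDR 6.37e-09). It was 2.18 without negative replicate 1 and 0.86 without negative replicate 2, and DESeq2 did not call that peak (DESeq2 FDR 0.0836). The distal peak 37.5 kb upstream, also in an intron of Nfxl1 and the one with the steroid receptor element letters, had 7.56 and 10.5 CPM against 1.11 and 0.948 CPM. It was more open by 3.13 ± 0.44 (edgeR FDR 4.21e-11). The peak 32.5 kb inside Corin differed by 1.002 ± 0.47 and was not called (edgeR FDR 0.0695), but was with the replicate number as a block (edgeR FDR 0.0437).

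The Gm8773 promoter peak had 9.16 and 8.17 CPM in AgRP-positive nuclei and 4.31 and 3.79 CPM in negative ones, a difference of 1.09 ± 0.32 (edgeR FDR 0.00258). That call was lost without negative replicate 2 (FDR 0.06). The distal peak 33.0 kb upstream, in an intron of Gtpbp10, had 10.5 and 11.8 CPM against 1.72 and 1.54 CPM. It was more open by 2.77 ± 0.37 (edgeR FDR 4.77e-12). Between them, the promoter peak of Gtpbp10 differed by -0.13 ± 0.19 (edgeR FDR 0.614).

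Hsd11b2 had the largest RNA difference between AgRP and POMC neurons, but negative nuclei are another reference, whose RNA was not analysed. Its own promoter peak was not called between AgRP-positive and AgRP-negative nuclei. That peak had 17.6 and 20.5 CPM in AgRP-positive nuclei and 14.9 and 18.1 CPM in negative ones. The libraries overlapped, and the difference was 0.21 ± 0.19 (edgeR FDR 0.396). The peak 2.6 kb upstream had 10.7 and 12.8 CPM against 12.8 and 16.0 CPM, and was not called either, at -0.30 ± 0.22 (edgeR FDR 0.269). Of the 9 peaks in the window, 1 was called more open, the Agrp promoter 49.2 kb downstream. It had 83.5 and 83.5 CPM against 7.02 and 8.89 CPM, a difference of 3.39 ± 0.17 (edgeR FDR 1.57e-77). Of the 2 called less open, one lay 26.2 kb downstream in an intron of Atp6v0d1, at -1.86 ± 0.47 (edgeR FDR 0.000441). The other was the Tppp3 promoter, at -0.53 ± 0.15 (edgeR FDR 0.00132), which fell short of the fold required without positive replicate 1 (-0.47).

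**Figure D3:**
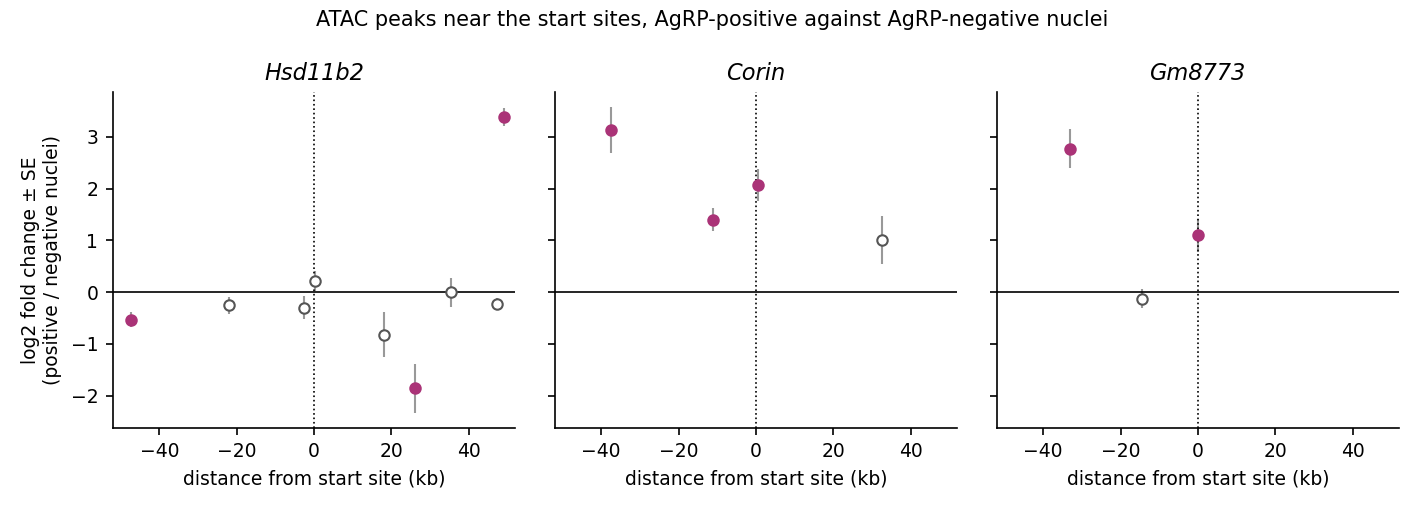
Fitted log2 difference in accessibility with SE, AgRP-positive against AgRP-negative nuclei, for each peak within 50 kb of the 3 start sites, by distance in kb with upstream at the left. Filled circles are called. The called peaks of Corin and Gm8773 are all above 0, and at Hsd11b2 only the Agrp promoter peak at the right edge, at 3.39, is called above 0.

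At Corin and Gm8773, 1 distal peak each was also called more open after fasting. In AgRP nuclei of the 3 states 102237 peaks were tested and 27% were called between fasted and fed mice. Of 32 peaks in the windows of the 3 genes 28 passed the filter, of which 6 were called more open and 1 less open, beside 18.1% and 8.88% of all peaks. By gene, 1 of 7 tested peaks at Corin and 1 of 3 at Gm8773 were called more open and 0 less open. Nothing is read from these numbers of calls. The peaks of the 3 states were drawn separately from those of the sorted nuclei, and their CPM are on another scale.

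The Gm8773 peak 33.1 kb upstream had 8.69 and 11.9 CPM in fed, 52.9 and 37.4 CPM in fasted and 37.9 and 30.0 CPM in leptin libraries. Fasted libraries lay above fed ones by 2.09 ± 0.24 on the log2 scale, or 4.26-fold (edgeR FDR 2.08e-05). The Gm8773 promoter peak had 9.95 and 7.02 CPM in fed, 7.05 and 5.81 in fasted and 6.13 and 8.77 in leptin libraries, and did not follow (-0.35 ± 0.32, edgeR FDR 0.431). The promoter of Gtpbp10, whose intron holds the distal peak, differed by -0.38 ± 0.24 (edgeR FDR 0.257).

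The Corin peak 37.6 kb upstream had 11.3 and 7.61 CPM in fed, 35.8 and 19.7 CPM in fasted and 22.2 and 11.4 CPM in leptin libraries. Fasted libraries lay above fed ones by 1.60 ± 0.34, or 3.04-fold (edgeR FDR 0.00186). The promoter peak of Corin had 27.9 and 19.7 CPM in fed, 19.7 and 16.3 in fasted and 16.8 and 13.2 in leptin libraries (-0.37 ± 0.24, edgeR FDR 0.257). Both distal calls held when any 1 of the libraries was left out.

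**Figure D4:**
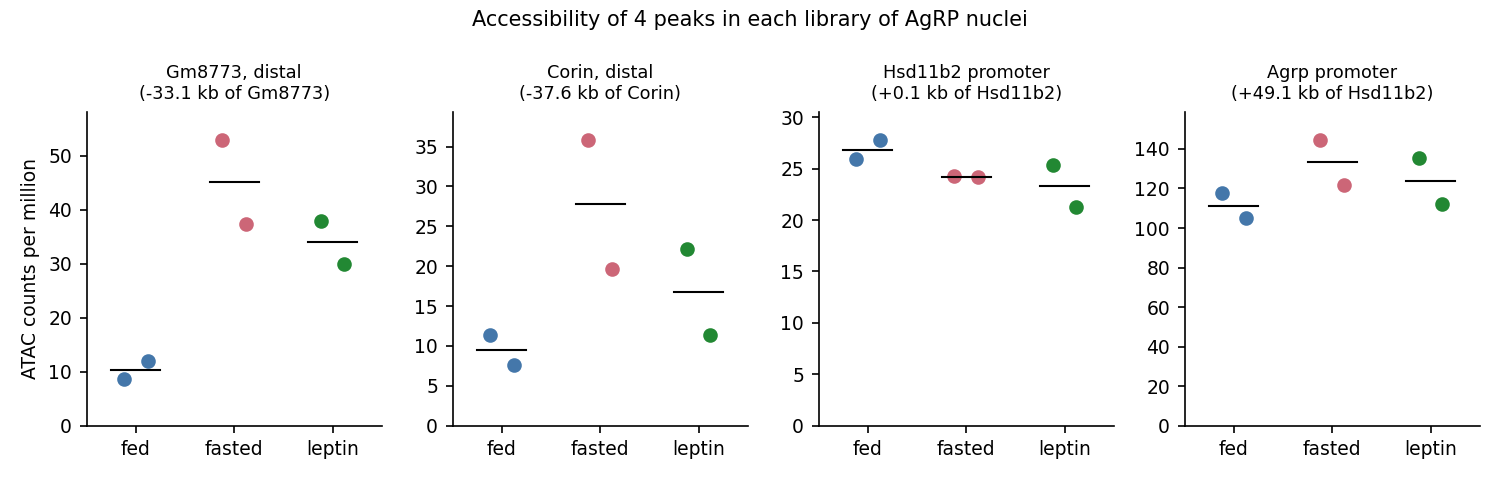
ATAC-seq CPM in each of the 2 libraries per state of AgRP nuclei, with the mean as a line, for the distal peaks of Gm8773 and Corin and the promoters of Hsd11b2 and Agrp. Fasted libraries stood at 52.9 and 37.4 CPM against 8.69 and 11.9 CPM fed for Gm8773, while the Hsd11b2 promoter ranged from 21.3 to 27.8 CPM over all 6.

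At Hsd11b2 the promoter peak had 25.9 and 27.8 CPM in fed, 24.2 and 24.2 CPM in fasted and 25.3 and 21.3 CPM in leptin libraries. The difference between fasted and fed was -0.15 ± 0.20 (edgeR FDR 0.595). The Agrp promoter had 117.8 and 104.9 CPM in fed and 144.5 and 121.9 CPM in fasted libraries and was not called either (0.26 ± 0.12, edgeR FDR 0.104). Of the 18 peaks in the window, 4 were called more open with fasting and 1 less open. The nearest lay 3.9 kb upstream and had 1.76 and 2.63 CPM in fed, 5.56 and 6.25 in fasted and 6.41 and 5.89 in leptin libraries, a difference of 1.36 ± 0.38 (edgeR FDR 0.0123). The other 3 lay in introns of Atp6v0d1, 25.9, 31.5 and 35.4 kb downstream, at 1.23 ± 0.42, 1.64 ± 0.44 and 0.84 ± 0.28 (edgeR FDR 0.0355, 0.00859 and 0.028). The 1 less open lay 49.3 kb upstream, in an exon of Tppp3, at -1.003 ± 0.31 (edgeR FDR 0.021).

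Each of these 5 calls was lost when 1 library or another was left out, unlike those of the distal Corin and Gm8773 peaks. For the peak 3.9 kb upstream that was fasted replicate 2 (FDR 0.0509) or fed replicate 1 (FDR 0.0768), and for the peak 31.5 kb downstream fed replicate 2 (FDR 0.133). The peak 49.3 kb upstream lost it without fasted replicate 1 (FDR 0.131) or fed replicate 2 (FDR 0.163). The peak 25.9 kb downstream lost it without fasted replicate 1 (FDR 0.171), fed replicate 1 (FDR 0.179) or fed replicate 2 (FDR 0.0712), and in DESeq2 (FDR 0.0775). The peak 35.4 kb downstream lost it without fasted replicate 1 (FDR 0.111), fasted replicate 2 (FDR 0.0617) or fed replicate 2 (FDR 0.181).

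**Figure D5:**
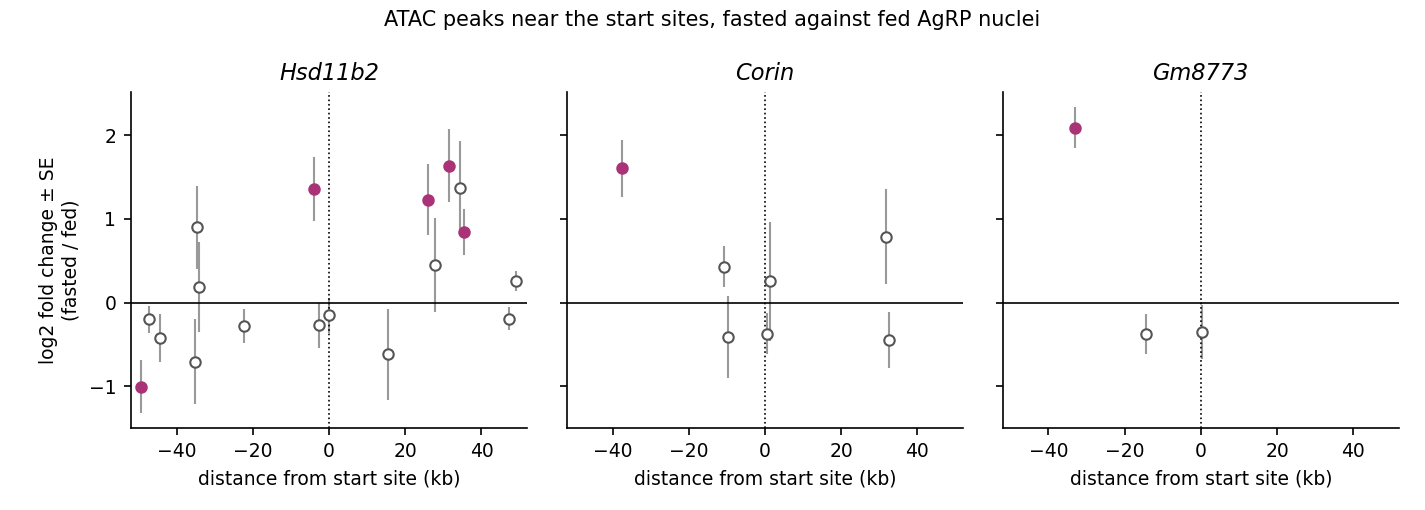
Fitted log2 difference in accessibility with SE, fasted against fed AgRP nuclei, for each tested peak within 50 kb of the 3 start sites, by distance in kb with upstream at the left. Filled circles are called. The distal peaks of Gm8773, at 2.09, and Corin, at 1.60, lie above the promoter peaks of the 2 genes, at -0.35 and -0.37.

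Leptin against fasted called 3.08% of all peaks and 0 of the 28 in the windows, with 2 at an unadjusted p under 0.05 in edgeR and 0 by DESeq2. The Gm8773 distal peak differed by -0.42 ± 0.20 (edgeR FDR 0.37) and the Corin distal peak by -0.75 ± 0.29 (edgeR FDR 0.216). The Corin value passed the threshold without fasted replicate 2 (-1.11, FDR 0.0493) and with the replicate number, not shown to pair these libraries, as a block (-0.74, FDR 0.0263).

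CUT&RUN, which cuts chromatin beside a bound antibody, gave peak lists for CTCF, a factor that organises chromatin loops, and for IRF3, an interferon regulatory factor. Each list is 1 library, so its values have no replicate error. In CTCF lists a value is the fold enrichment that the authors' peak caller gave, with a −log10 q that is larger for a better supported peak. Some listed peaks had a low −log10 q, so a listed peak is not by itself a CTCF site. The input of nuclei differed among the libraries, so absence from a list does not show absence of a site. In AgRP nuclei a CTCF peak 2.7 kb upstream of Hsd11b2 had a fold enrichment of 8.70 and overlapped the ATAC-seq peak 2.6 kb upstream. The cerebellum, which served as a second tissue, had a CTCF peak at this place in all 4 of its libraries. Further CTCF peaks of AgRP nuclei lay between Hsd11b2 and Agrp, at 35.6 kb (6.12-fold) and 47.4 kb (6.34-fold) downstream, and both places were also listed in the 4 cerebellum libraries. At 35.6 kb the entry of the 1K cerebellum library was weak, at 1.84-fold, while the 10K, 50K and 100K libraries reached 17.2-fold, 20.5-fold and 21.2-fold. Others were at no place listed in cerebellum. The entry at 19.7 kb (2.83-fold) was poorly supported, with a −log10 q of 0.434. Those inside the ATAC-seq peak of the Agrp promoter (up to 4.76-fold) had a −log10 q from 0.429 to 3.82. At Corin, AgRP nuclei had CTCF peaks 1.5 kb (5.45-fold) and 10.5 kb (5.26-fold) upstream, and none of the cerebellum lists had a peak at either. The Gm8773 distal peak overlapped a weak CTCF peak of AgRP nuclei, at 3.16-fold and a −log10 q of 1.05. The list taken as IRF3, from AgRP nuclei of the IRF3-2D model, was the only SEACR list. The labels describe it under a name that includes IRF3, although its own name does not mention IRF3. Its strongest peak in the 3 windows lay at the shared promoter of Atp6v0d1 and Gm38250, 47.2 kb downstream of Hsd11b2, with a total signal of 11315. It held 1 peak 2.0 kb upstream of Gm8773 (total signal 1030) and 1 peak at -45.7 kb from the Corin start (1340).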

How the data were processed

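The deposited RNA and ATAC-seq values are raw counts per gene and per merged peak, one column per library. Per the paper's methods and the labels, the authors aligned RNA reads with HISAT2 and counted them with featureCounts, and aligned ATAC-seq reads with Bowtie2, called peaks with MACS2 and counted with bedtools, on mm10. The authors' CTCF lists hold a fold enrichment (ratio) and a −log10 q per peak, and their SEACR list holds a total and a maximum signal, with no stated scaling. The authors' log2 CPM tables were not used, nor were whole-arcuate RNA libraries, which are not analysed here.

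Features with a mean over 1 CPM were scaled by TMM and tested with the quasi-likelihood test of edgeR 4.0.16 in R 4.3.3, after a check on simulated counts. AgRP libraries of all states shared a model, as did POMC libraries, all 17 for interactions, and ATAC-seq libraries of each table. AgRP and POMC neurons were compared within each state. Standard errors are those implied by the F statistic. Alternatives were DESeq2 1.42.0, other scalings, no filter, a replicate block and each library left out. Same-numbered libraries correlated at 0.537 to 0.814 (10 pairs, residuals from state means) in AgRP RNA, and pairs of other numbers at -0.645 to 0.641. The medians were 0.692 and -0.238. In POMC RNA same-numbered libraries correlated at 0.726 to 0.770. With 2 libraries per state, the POMC pairs of other numbers have the same values with the sign reversed. Positive and negative nuclei were sorted from the same pooled samples, with a correlation of 0.0988. The members and lists were chosen with earlier results of these data known. Genes were named by rule, as the members, their neighbours within 50 kb, the 5 most similar genes, fixed core genes of each list and up to 3 called genes per direction. Replicates were separate pools of 4 arcuate nuclei, as the labels' protocol gives for AgRP mice and the study's text for its TRAP samples in general.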

Additional observations from a re-analysis of the deposited data

How the results depend on the processing

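The higher RNA of the 3 genes in AgRP than POMC neurons of fasted and leptin mice kept its direction under every alternative run. It kept its calls except for Gm8773 after leptin, which ranged from 2.67 to 3.51 on the log2 scale when 1 library was left out. For Hsd11b2 the kept calls add no support, since it passed the filter on low counts only through the AgRP libraries. Fasted against fed, Hsd11b2 was -0.024 with library size scaling and ranged from -0.043 to 0.12 with 1 library left out. Leptin against fed, Gm8773 was -0.024 without AgRP replicate 4 and POMC replicate 2, and with 1 library left out it ranged from -0.23 to 0.27 and Hsd11b2 from -0.18 to 0.038. Leptin against fasted, the same ranges were -0.12 to 0.029 for Tppp3, -0.51 to 0.15 for Agrp and, in POMC neurons, -0.16 to 0.70 for Gm8773. The interactions of Corin ranged from -0.43 to 0.17 for fasting and from -0.12 to 0.23 for leptin. The cause was not tested for any of these.

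With the replicate block, fasting called 1 of the 3 genes, Gm8773 at 0.55, and leptin against fasted called 1 of the 28 ATAC-seq peaks, the Corin distal peak at -0.74 (edgeR FDR 0.0263). In the state ATAC-seq a shared number was not shown to pair the libraries (same-number correlations of -0.00228 to 0.165). These values cannot decide it, since positive and negative nuclei sorted from the same pooled samples correlated at only 0.0988. The block also added the call of the Corin peak 32.5 kb inside the gene in sorted nuclei and that of Agrp with fasting, and changed no other call among the 3 genes, the peaks and the named genes of the state contrasts for which it was run. It was not run for other genes named between AgRP and POMC neurons. Across the 2 lines a shared number was not shown to pair libraries, since it was checked only within each line. No paired analysis was possible for AgRP against POMC neurons of fed mice because only the number 1 occurs in both.

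With 1 library left out, fasting called 3 to 7 peaks and leptin against fasted 0 to 1. The sorted nuclei gave 3 called of 8 tested peaks within 25 kb and 15 of 37 within 100 kb, beside 39.6% of all peaks. Fasting gave 1 of 11 and 15 of 58, beside 27% of all peaks. Over all genes, fasting called 378 higher and 143 lower, against 148 and 90 with library size scaling and 590 and 340 with the block. In fasted mice AgRP against POMC neurons called 615 genes higher and 386 lower, and up to 1187 and 1368 without AgRP replicate 4 and POMC replicate 2. The 2 libraries per group in POMC RNA and in ATAC-seq limit what differences could be called.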
